A study of Mus musculus with 12 samples.

Results

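The 45 genes described here are the nuclear genes that a list of mitochondrial biogenesis, dynamics, mitophagy and protein import names. They were taken from the count table by gene symbol alone, and all 45 were found among its 35275 genes. RNA-seq was made from brain cortex of mice labelled female and 8 months old, in 4 groups of 3 libraries: WT, APP/PS1 mice that express human APP together with mutated human presenilin 1, mice with a global Sirt3 knock out (Sirt3-/-), and APP/PS1/Sirt3-/- mice with both changes. The comparisons ask what the loss of Sirt3, the transgenes and their combination do to cortical gene expression. The study's methods name Sirt3-/- mice of the 129 Sv and of the C57BL/6 background and APP/PS1 mice of the C57BL/6 background. The sources used here do not say which of these the sequenced Sirt3-/- and WT mice had, so strain and genotype cannot be told apart. Values of a group are listed in the order of the replicate numbers in the titles, 1, 2 and 4. The study describes several mice in each group, but no label names the animal behind a library, so the p-values measure the spread between these libraries.

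Each library held 15251720 to 18644376 reads in genes, and all 45 members passed the filter on low counts that left 16673 genes to test. Several libraries went against their labels. Sirt3 was 60.8 to 64.5 CPM (counts per 1000000 reads, scaled between libraries by TMM) in WT and 0.186 to 0.467 in Sirt3-/-, but 28.6, 0.211 and 27.7 in the libraries labelled APP/PS1/Sirt3-/-. App was 3614 and 3794 CPM in replicates 1 and 2 labelled APP/PS1 and 1623 in replicate 4, below the 1755 to 1828 of WT. Replicate 4 of each of the 4 groups held Y-linked reads (Ddx3y at 32.3 to 38.3 CPM) and hardly any Xist reads despite the female label. The 8 markers of cortex were detected in every library. So were those of neighbouring regions, except that 1 thalamic marker had no reads in WT replicate 2. Summed, the cortical markers were 2011 to 2441 CPM in WT, 1556 to 1727 in APP/PS1, 1071 to 2046 in Sirt3-/- and 1288 to 1775 in APP/PS1/Sirt3-/-. All 8 had a negative fold change against WT in each of the other groups. The median on the log2 scale was -0.49 in Sirt3-/-, -0.49 in APP/PS1 and -0.66 in APP/PS1/Sirt3-/-, where 1 passed the test. The summed level of 11 striatal markers was 317 to 674 CPM in WT, 475 to 1206 in APP/PS1, 1607 to 2962 in Sirt3-/- and 310 to 1747 in APP/PS1/Sirt3-/-. The 8 thalamic markers summed to 71.2 to 86.7 CPM in WT, 211 to 315 in APP/PS1, 63.3 to 163 in Sirt3-/- and 107 to 357 in APP/PS1/Sirt3-/-. Against WT, all 8 had a positive fold change in each of the other groups. Their median on the log2 scale was 1.29 in Sirt3-/-, 2.05 in APP/PS1 and 2.32 in APP/PS1/Sirt3-/-, where 1 passed the test. The 10 choroid plexus markers ranged from 14.9 to 1774 CPM within WT alone. In such bulk tissue, fewer cells of a type and less RNA per cell cannot be told apart.

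Mitochondria are renewed by biogenesis, in which coactivators of the PGC-1 family act through nuclear factors such as NRF1, GABP and ERR-alpha on genes for the upkeep of mitochondrial DNA and for import. Fusion and fission reshape the network, mitophagy removes damaged organelles, and most mitochondrial proteins enter through the TOM and TIM translocases and are folded or degraded by chaperones and proteases inside. Neurons depend on this cycle because their synapses and long axons need mitochondria far from the cell body. SIRT3 is the main deacetylase of the mitochondrial matrix and acts on proteins, so transcript levels report only part of what it could change.

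Promoter sequence is shown because the members share binding motifs of the biogenesis factors that are themselves on the list. RefSeq promoters of GRCm38.p6, from 250 bases before to 50 after each start, were matched for 39 of the 45 members. The GABP or ETS motif CCGGAAG occurred on either strand in 18 of the 39 (46.2%), against 9.93% of all 27025 genes with a promoter and 17.1% of the 11812 that also passed the filter here. The NRF1 motif GCGCANGCG occurred in 11 of 39 (28.2%), against 7.03% and 13.4%. Either of these motifs was present in 27 of 39 (69.2%), against 15.5% and 27.5%. The E-box CACGTG was found in 5 of 39 (12.8%), against 8.09% and 11.1%. The ERR motif TCAAGGTCA and the CRE TGACGTCA were found in none of the 39. The ERR motif was in 0.466% of all genes and 0.356% of those that passed the filter, and the CRE in 2.03% and 3.35%. At such low shares, finding none among 39 does not set the members apart. A CCGGAAG on one strand can overlap a CCGGAAG on the other by 4 letters, as it does before Hspe1. A match describes the sequence and is no measurement of binding.

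The 250 bases before the start are printed for the called members Tomm70a and Phb and for Polg and Vdac1, with motif matches in capitals. Tomm70a (chr16:57121464-57121713, plus strand) holds a pair of ETS matches, at 80 and at 8 bases before the start. Polg (chr7:79466274-79466523, minus strand) and the first start of Vdac1 (chr11:52360601-52360850, plus strand) hold 1 ETS match each. Phb (chr11:95666707-95666956, plus strand) holds an E-box in this stretch, and its NRF1 match lies past the start.
Tomm70a: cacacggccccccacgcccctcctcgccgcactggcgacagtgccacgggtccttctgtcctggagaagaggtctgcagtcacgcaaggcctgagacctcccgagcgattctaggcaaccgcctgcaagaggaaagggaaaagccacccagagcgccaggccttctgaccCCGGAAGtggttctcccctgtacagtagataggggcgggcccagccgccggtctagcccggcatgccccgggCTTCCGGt
Polg: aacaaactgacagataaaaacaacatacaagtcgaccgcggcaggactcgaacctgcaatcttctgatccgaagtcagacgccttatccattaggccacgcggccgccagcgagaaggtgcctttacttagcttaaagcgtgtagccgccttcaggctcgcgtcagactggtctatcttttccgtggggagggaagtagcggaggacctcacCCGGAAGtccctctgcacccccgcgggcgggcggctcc
Vdac1: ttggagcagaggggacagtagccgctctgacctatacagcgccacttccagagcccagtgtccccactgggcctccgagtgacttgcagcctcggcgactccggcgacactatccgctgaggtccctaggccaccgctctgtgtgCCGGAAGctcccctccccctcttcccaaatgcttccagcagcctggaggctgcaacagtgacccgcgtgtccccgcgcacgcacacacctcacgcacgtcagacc
Phb: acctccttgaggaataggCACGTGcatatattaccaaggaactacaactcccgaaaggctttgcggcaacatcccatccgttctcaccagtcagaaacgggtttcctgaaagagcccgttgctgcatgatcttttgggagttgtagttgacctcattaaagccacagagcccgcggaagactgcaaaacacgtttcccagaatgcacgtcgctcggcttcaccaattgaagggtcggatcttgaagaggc

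The level of the members in WT cortex, as the deposited FPKM (fragments per kilobase of gene and sequencing depth, which allows genes to be compared), spanned from 1.03 ± 0.284 (SD, n = 3) for Polg2 to 233 ± 22.2 for Pink1. Pink1, the kinase that marks damaged mitochondria, stood above Vdac1 (183 ± 4.26 FPKM), the main pore of the outer membrane, and Fis1 (123 FPKM, from 110 to 132), an adaptor of fission. The ranges of these 3 over the WT libraries did not overlap with each other or with the next gene. Vdac2, Vdac3, Mfn2, Hspa9, Tomm20 and Hspe1 followed at 66.2 to 51.3 FPKM, and no neighbours among these 6 were separated by their WT ranges. In all, 9 members were over 50 FPKM, 22 lay from 10 to 50 and 14 under 10. Of the 44 neighbouring pairs in this order, 30 overlapped. The biogenesis regulators sat low, Ppargc1a at 5.58 ± 0.551 FPKM and Nrf1 at 5.85 ± 0.159, while Esrra was at 42.3 ± 2.09. Park2, the ubiquitin ligase that acts with Pink1, was at 3.68 ± 0.489 FPKM, at the other end of the order from its partner.

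**Figure D1:**
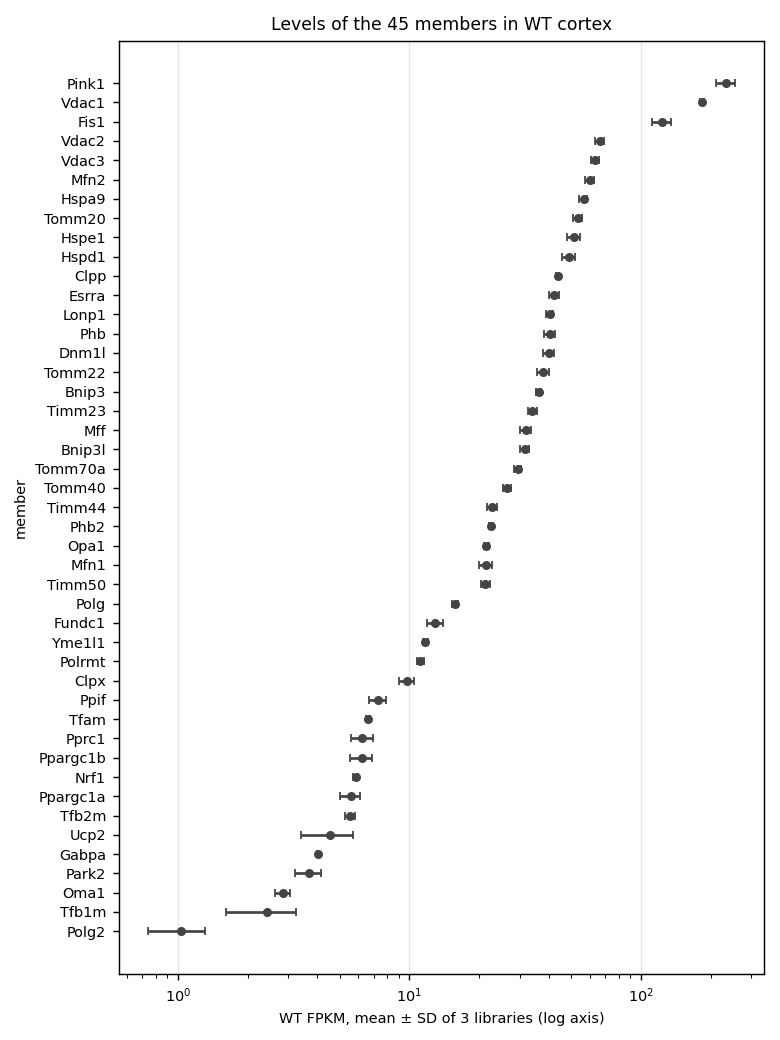
Levels of the 45 members in WT cortex, as mean FPKM on a log axis with the SD of 3 libraries as bars. Pink1 lies highest at 233 FPKM and Polg2 lowest at 1.03, and 22 of the 45 members lie between 10 and 50 FPKM.

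Most members moved little. The highest of the 12 libraries was under 1.5 times the lowest for 39 of 45 members, and the median ratio was 1.25. The median coefficient of variation within groups was 6.24%. These spreads were not set beside those of other genes. Only Ucp2, Polg2 and Tfb1m spanned more than 2-fold. Polg2 and Tfb1m rest on 31 to 73 and 38 to 67 reads per library, so counting error weighs on both.

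Against this narrow spread, 1 member passed the test in Sirt3-/- against WT (adjusted p below 0.05 with edgeR's quasi-likelihood test), the import receptor gene Tomm70a, which rose, beside 0.294% of all genes tested. Unless another fit is named, passing with edgeR refers to the fit to all 12 libraries without covariates. At an unadjusted p below 0.05 there were 8 members, 17.8% of the 45 beside 13.5% of all genes. In 9 members all 3 Sirt3-/- libraries lay above all 3 WT libraries (beside 10.3% of all genes), and in 2, Polg and Polrmt, they lay below (beside 8.49%). DESeq2 on the same libraries also called Tomm70a alone, beside 2.46% of its genes. The median log2 fold change of the members was 0.04, and that of all genes tested was 0.00.

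In APP/PS1 against WT no member passed with edgeR, as was so for all genes tested (0.0%). At an unadjusted p below 0.05 there were 13 members (28.9%), beside 17.0% of all genes, and DESeq2 on the same 12 libraries called 3 members, Vdac3, Phb and Vdac1, beside 3.03% of its genes. All 3 APP/PS1 libraries lay above all 3 of WT in 11 members (24.4%, beside 13.3% of all genes) and below in 3 (6.67%, beside 14.6%). On FPKM, which is scaled to the library total, these counts were 15 and 2, beside 18.7% and 10.6% of all genes. The members' median log2 fold change was 0.03, beside 0.01 over all genes.

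In APP/PS1/Sirt3-/- against WT no member passed with edgeR, where 1.13% of all genes did. Unadjusted p was below 0.05 for 14 members (31.1%), beside 20.1% of all genes, and DESeq2 called 7 members, beside 6.19% of its genes. All 3 libraries lay above WT in 15 members (33.3%, beside 13.0% of all genes) and below in 2 (4.44%, beside 12.5%), again Polg and Polrmt. On FPKM the counts were 18 and 2, beside 16.4% and 9.60% of all genes. These 3 comparisons share the WT libraries, so the same WT values enter each.

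**Figure D2:**
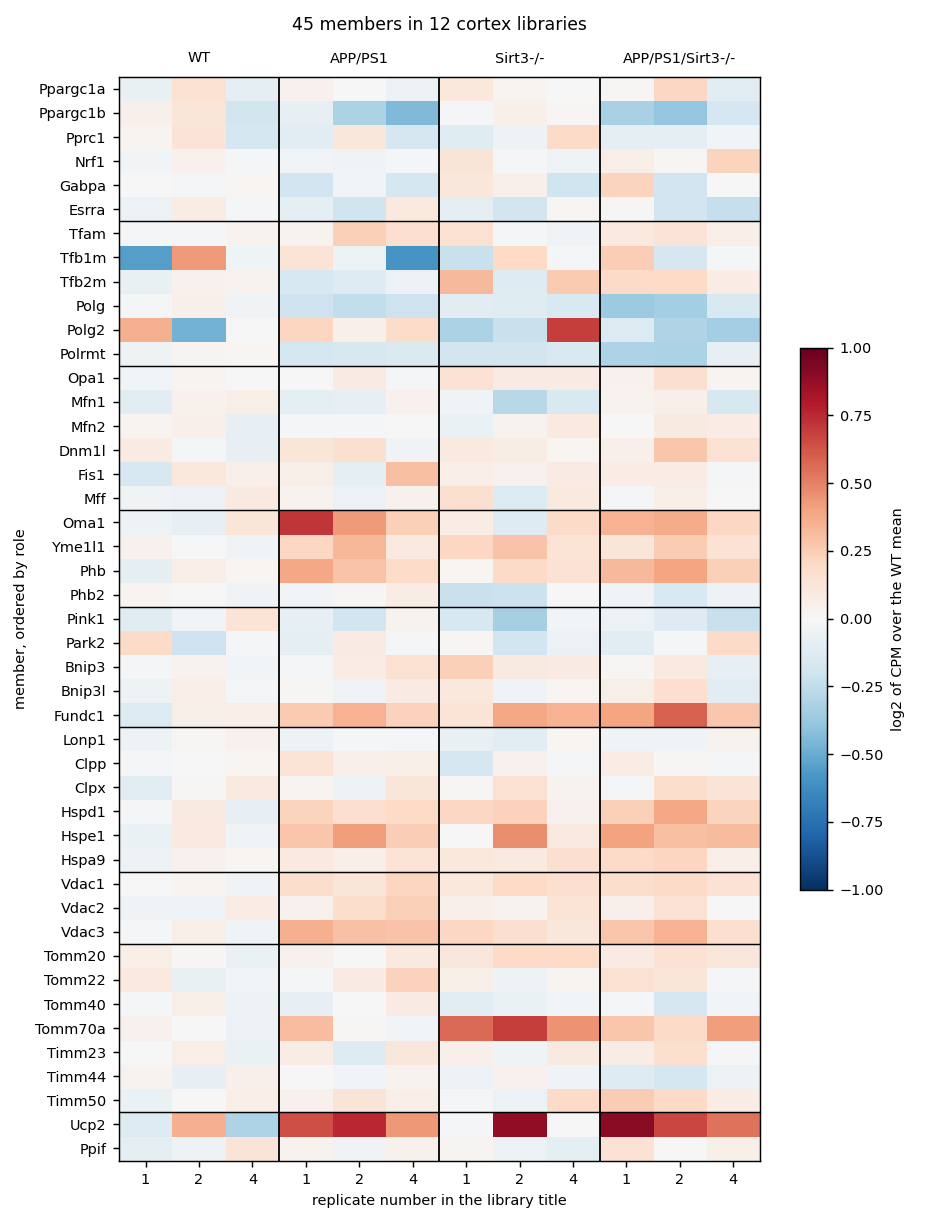
Each of the 45 members (rows, grouped by role) in each of the 12 libraries (columns, by group and replicate number), as log2 of CPM over the mean of the 3 WT libraries. Tomm70a is raised in all 3 Sirt3-/- libraries (168, 183 and 155 CPM against 109 to 117 in WT), while most other rows stay pale.

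The direct comparisons between the other groups are given next. APP/PS1/Sirt3-/- against APP/PS1, the effect of the Sirt3 label within transgenic mice, called no member with edgeR or DESeq2, beside 0.024% and 0.0272% of all genes, and 1 member was at an unadjusted p below 0.05, beside 4.86% of all genes. All 3 libraries lay above APP/PS1 in 3 members (Nrf1, Tfb2m and Hspd1, beside 5.7% of all genes) and below in 3 (Polg2, Phb2 and Timm44, beside 6.21%). APP/PS1/Sirt3-/- against Sirt3-/- called none with either tool (0.0% of all genes with edgeR and 0.736% with DESeq2), with 4 at an unadjusted p below 0.05, beside 11.4% of all genes. All 3 libraries lay above Sirt3-/- in 2 members (Oma1 and Phb, beside 6.98% of all genes) and below in 4 (Ppargc1b, Polg, Tomm70a and Timm44, beside 6.63%). The interaction, which asks whether the Sirt3 label acts differently with and without the transgenes, called none with either tool (0.0% of all genes with edgeR and 0.0563% with DESeq2), with 3 at an unadjusted p below 0.05, beside 6.48% of all genes. Averaged over both backgrounds, Sirt3 deletion called Tomm70a alone with either tool, beside 0.222% of all genes with edgeR and 1.85% with DESeq2, and 7 members were at an unadjusted p below 0.05, beside 12.3%. Averaged over both Sirt3 genotypes, APP/PS1 called Vdac3 and Phb, both higher, beside 2.05% of all genes, and DESeq2 called 5 members, beside 5.96%. At an unadjusted p below 0.05 there were 10, beside 20.9% of all genes.

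Fits to the 2 groups compared alone were also made. In Sirt3-/- against WT, edgeR and DESeq2 each called 1 member, as on all 12 libraries, beside 0.707% and 2.23% of all genes. In APP/PS1 against WT each called 4 members, beside 6.81% and 7.39%. In APP/PS1/Sirt3-/- against WT they called 3 and 6 members, beside 4.67% and 6.63%. In APP/PS1/Sirt3-/- against APP/PS1 they called none, beside 0.0123% and 0.184%, and against Sirt3-/- none, beside 0.0186% and 0.266%.

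No regulator of biogenesis passed in any of the 8 comparisons of the edgeR fit to all 12 libraries without covariates. DESeq2 on those libraries called 1 of them, Ppargc1b, in the APP/PS1 average. Ppargc1a (ENSMUSG00000029167, chromosome 5 from 51454249 to 51567725), which encodes the coactivator PGC-1 alpha, was 34.8, 40.9 and 34.6 CPM in WT, 37.9, 36.8 and 35.4 in APP/PS1, 39.5, 37.5 and 36.9 in Sirt3-/- and 37.0, 42.5 and 34.3 in APP/PS1/Sirt3-/-. Its groups overlapped throughout, and its log2 fold changes against WT were 0.00, 0.05 and 0.05 in that order of groups, each with a standard error of 0.09. Nrf1 (ENSMUSG00000058440), the nuclear respiratory factor, was 23.7, 24.8 and 23.8 CPM in WT, and APP/PS1/Sirt3-/- had 25.3, 24.3 and 28.1, a log2 difference of 0.10 (standard error 0.08, adjusted p = 0.498). Esrra, Gabpa and Pprc1, which encode an orphan receptor, the DNA-binding subunit of GABP and another coactivator, had log2 fold changes against WT between -0.13 and 0.02.

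Ppargc1b (ENSMUSG00000033871, chromosome 18 from 61298136 to 61400431), the coactivator PGC-1 beta, had its lower values in the transgenic groups. It was 24.0, 25.2 and 20.4 CPM in WT and 23.1, 24.0 and 23.4 in Sirt3-/-. It was 21.9, 18.7 and 17.1 in APP/PS1 and 18.5, 17.7 and 20.6 in APP/PS1/Sirt3-/-. The last group lay below Sirt3-/- in all 3 libraries (log2 difference -0.31, standard error 0.11, adjusted p = 0.325), while its replicate 4 reached the lowest WT library. The APP/PS1 average was -0.29 on the log2 scale (standard error 0.08, adjusted p = 0.0625), and DESeq2 gave an adjusted p of 0.0289.

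Among the genes that transcribe and copy mitochondrial DNA, Polg and Polrmt lay below WT in all 9 libraries of the other groups. Neither passed in the edgeR fit to all 12 libraries without covariates. Polg (ENSMUSG00000039176, chromosome 7 from 79448791 to 79466362) encodes the catalytic subunit of the DNA polymerase. It was 84.0, 87.5 and 82.4 CPM in WT, 73.2, 71.5 and 73.4 in APP/PS1, 78.7, 77.8 and 76.3 in Sirt3-/- and 65.8, 66.9 and 76.0 in APP/PS1/Sirt3-/-. The largest difference was that of APP/PS1/Sirt3-/- against WT, -0.28 on the log2 scale (standard error 0.06, adjusted p = 0.0538), and the APP/PS1 average was -0.19 (standard error 0.05, adjusted p = 0.0521). DESeq2 put both under the threshold, with adjusted p-values of 0.00601 and 0.0125. With the thalamic markers as a covariate in edgeR, Polg gave -0.16 (adjusted p = 0.746) and -0.10 (adjusted p = 1.00), and with 3 region covariates -0.15 (0.965) and -0.09 (0.992).

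Polrmt, the mitochondrial RNA polymerase, was 47.2, 49.8 and 49.4 CPM in WT, and APP/PS1/Sirt3-/- had 39.4, 39.2 and 46.1 (log2 difference -0.23, standard error 0.07, adjusted p = 0.102). In APP/PS1 it was 43.2 to 44.1 CPM and in Sirt3-/- 42.8 to 43.8, so the 9 libraries lay within 39.2 to 46.1. Tfb2m, which helps the polymerase start, was 12.4, 12.7 and 13.3 CPM in APP/PS1 and 15.8, 15.9 and 14.6 in APP/PS1/Sirt3-/-. These groups did not overlap, and this was the smallest p of any member in that comparison (log2 difference 0.27, standard error 0.12, adjusted p = 0.974). Tfam, which packages the mitochondrial genome, was 27.7 to 28.7 CPM in WT and 27.4 to 33.1 in the other groups. Tfb1m, a methyltransferase of mitochondrial ribosomal RNA, and Polg2, the accessory subunit of the polymerase, had log2 fold changes against WT from -0.26 to 0.15, none at an unadjusted p below 0.05.

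Of the 6 fusion and fission genes none passed with edgeR or DESeq2, and none was at an unadjusted p below 0.05, in any of the 8 comparisons. Mfn2, a fusion protein of the outer membrane, was 251 to 276 CPM in WT and 254 to 285 elsewhere. Opa1, which fuses the inner membrane, was 133, 139 and 137 CPM in WT and 151, 144 and 145 in Sirt3-/-, without overlap (log2 difference 0.10). Dnm1l, the fission GTPase, and its adaptors Mff and Fis1 had log2 fold changes against WT from 0.01 to 0.16. Mfn1, the other outer membrane fusion protein, was 92.5, 103 and 104 CPM in WT and 97.3, 82.3 and 89.6 in Sirt3-/- (log2 difference -0.15).

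Phb, one of the 2 prohibitins that form a ring scaffold in the inner membrane, rose with APP/PS1. Phb (ENSMUSG00000038845, chromosome 11 from 95666957 to 95680773) was 69.4, 77.4 and 75.0 CPM in WT and 75.0, 84.2 and 81.8 in Sirt3-/-. It was 96.8, 89.9 and 84.0 CPM in APP/PS1 and 92.6, 97.2 and 87.1 in APP/PS1/Sirt3-/-. All 3 libraries of each transgenic group lay above WT, and APP/PS1/Sirt3-/- lay above Sirt3-/- as well. The APP/PS1 average was 0.24 on the log2 scale (standard error 0.05, edgeR adjusted p = 0.0361), and APP/PS1 against WT alone gave 0.29 (standard error 0.07, adjusted p = 0.111). The lowest APP/PS1 library was replicate 4, whose App level was that of WT. Its partner Phb2 was 53.5 to 55.8 CPM in WT and 46.9 to 57.6 elsewhere.

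The call on Phb did not hold in most reduced fits. Leaving out a single library kept it only without APP/PS1 replicate 4 (adjusted p = 0.0448), APP/PS1/Sirt3-/- replicate 4 (0.0115) or Sirt3-/- replicate 2 (0.00978), and gave 0.0705 to 0.0953 without any other. With the thalamic markers as a covariate the Phb difference was 0.15 (adjusted p = 1.00), with the choroid plexus markers 0.21 (adjusted p = 0.115), and without the 4 libraries numbered 4 it was 0.30 (adjusted p = 0.0819). The thalamic markers were higher in 5 of the 6 transgenic libraries than in any other library, and their part in the Phb result was not tested beyond this fit.

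The 2 inner membrane proteases that cut Opa1 did not pass in any comparison. Yme1l1 was 57.7, 56.0 and 54.7 CPM in WT, and all 9 other libraries were above, from 60.0 to 70.8. It gave 0.21 on the log2 scale in Sirt3-/- against WT (standard error 0.07, adjusted p = 0.236) and that of the interaction was -0.25 (adjusted p = 0.745). Oma1 was 5.37, 5.25 and 6.03 CPM in WT, 9.10, 7.46 and 6.56 in APP/PS1 and 7.04, 7.18 and 6.42 in APP/PS1/Sirt3-/-. The APP/PS1 average of Oma1 was 0.37 (standard error 0.11, adjusted p = 0.0895), from 79 to 170 reads per library.

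None of the 5 mitophagy genes passed in the edgeR fit to all 12 libraries without covariates. Fundc1 was the one that DESeq2 on those libraries called. Fundc1 (ENSMUSG00000025040, chromosome X from 17556564 to 17572325), a receptor for mitophagy in the outer membrane, was 23.8, 27.3 and 27.4 CPM in WT, 31.4, 33.4 and 30.7 in APP/PS1, 28.7, 34.3 and 33.3 in Sirt3-/- and 34.4, 39.4 and 31.6 in APP/PS1/Sirt3-/-. All 9 libraries of the other groups lay above all 3 of WT. The largest of the 3 differences was 0.43 on the log2 scale in APP/PS1/Sirt3-/- (standard error 0.10, edgeR adjusted p = 0.0541, DESeq2 adjusted p = 0.00957), and Sirt3-/- against WT gave 0.29 (standard error 0.10, adjusted p = 0.217). With the thalamic markers as a covariate the first was 0.18 (adjusted p = 0.809). Over 27 alternative fits with edgeR or DESeq2, it passed in 8 and was 0.18 to 0.58.

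Pink1 was 517, 553 and 621 CPM in WT and 506, 448 and 554 in Sirt3-/- (log2 difference -0.17, standard error 0.10, adjusted p = 0.479). Park2 was 15.5 to 20.3 CPM in WT and 15.6 to 20.4 elsewhere. Bnip3 and Bnip3l, receptors of the same kind as Fundc1, had log2 fold changes against WT of 0.01 to 0.14. Bnip3 was higher in all 3 Sirt3-/- libraries (76.4, 68.8 and 68.7 CPM) than in WT (64.3, 66.5 and 63.6). It lies on chromosome 7 from 138890836 to 138909519, the chromosome that also holds Sirt3. A part of strain in this difference was not tested.

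No matrix chaperone or protease passed in the edgeR fit to all 12 libraries without covariates. DESeq2 on those libraries called Hspd1 in APP/PS1/Sirt3-/- against WT. Hspd1 (ENSMUSG00000025980, chromosome 1 from 55077835 to 55088243), the chaperonin that folds imported proteins, was 119, 129 and 114 CPM in WT, 141, 135 and 138 in APP/PS1, 139, 142 and 124 in Sirt3-/- and 142, 158 and 141 in APP/PS1/Sirt3-/-. Both transgenic groups lay above WT without overlap, and Sirt3-/- replicate 4 lay within WT. APP/PS1/Sirt3-/- against WT gave 0.29 on the log2 scale (standard error 0.07, edgeR adjusted p = 0.0641, DESeq2 adjusted p = 0.0124). Over 27 alternative fits with edgeR or DESeq2, this difference passed in 4 and was 0.23 to 0.42.

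Hspe1, the lid of that chaperonin, is transcribed from the other strand with its start inside the Hspd1 start region (chromosome 1 from 55088132 to 55091307). The sources used here do not say whether counting used strand, so reads in the overlap cannot be assigned. Hspe1 was 48.2, 53.8 and 49.2 CPM in WT, and APP/PS1/Sirt3-/- had 66.4, 62.2 and 62.9 (log2 difference 0.34, standard error 0.10, adjusted p = 0.0998). Over 27 alternative fits with edgeR or DESeq2, Hspe1 passed in 3 there and in 3 in APP/PS1 against WT. Within Sirt3-/- it was 50.4, 69.5 and 54.0 CPM, and the high library, replicate 2, was also the one with choroid plexus markers at 1380 CPM against 17.7 and 24.2 in the others. Hspa9, mortalin, which pulls proteins in through the inner membrane, was 168 to 180 CPM in WT and 183 to 204 in the other 9 libraries. Copies of Hspe1, Hspa9 and Vdac3 are listed as genes of their own in the table, so some of their reads may have been split. Lonp1, Clpp and its partner Clpx, the matrix proteases, had log2 fold changes against WT from -0.05 to 0.10.

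Vdac3 was the other member that edgeR called in the APP/PS1 average, where it was higher. The 3 porins exchange metabolites across the outer membrane. Vdac3 (ENSMUSG00000008892, chromosome 8 from 22577075 to 22593813) was 91.1, 95.3 and 88.8 CPM in WT, 117, 112 and 112 in APP/PS1, 106, 102 and 99.3 in Sirt3-/- and 111, 117 and 103 in APP/PS1/Sirt3-/-. All 9 libraries of the other groups lay above WT, and APP/PS1 replicate 4, whose App level was that of WT, was as high as its group. The APP/PS1 average was 0.21 on the log2 scale (standard error 0.04, edgeR adjusted p = 0.0355). By group, APP/PS1 against WT gave 0.31 (standard error 0.06, adjusted p = 0.0710) and APP/PS1/Sirt3-/- against WT 0.27 (standard error 0.06, adjusted p = 0.0549). Sirt3-/- against WT gave 0.16 (edgeR adjusted p = 0.275). APP/PS1/Sirt3-/- against Sirt3-/- gave only 0.11, and these 2 groups overlapped. The interaction was -0.20 (edgeR adjusted p = 0.748).

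Leaving out a single library kept the Vdac3 call only without APP/PS1/Sirt3-/- replicate 4 (adjusted p = 0.00734) or Sirt3-/- replicate 2 (0.0148), and gave 0.0592 to 0.0977 without any other. With the thalamic markers as a covariate the difference was 0.17 (adjusted p = 1.00), with the choroid plexus markers 0.19 (adjusted p = 0.110), and without the 4 libraries numbered 4 it was 0.22 (adjusted p = 0.107). The 5 libraries with the most Vdac3 were the 5 with the highest thalamic markers. Vdac1 was 379, 386 and 369 CPM in WT, 427, 411 and 439 in APP/PS1, 407, 434 and 425 in Sirt3-/- and 427, 432 and 419 in APP/PS1/Sirt3-/-, above WT in all 9. Its log2 difference was 0.17 in APP/PS1 (standard error 0.06, edgeR adjusted p = 0.195, DESeq2 adjusted p = 0.0321). Vdac2 was 134 to 145 CPM in WT and 138 to 162 elsewhere.

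**Figure D3:**
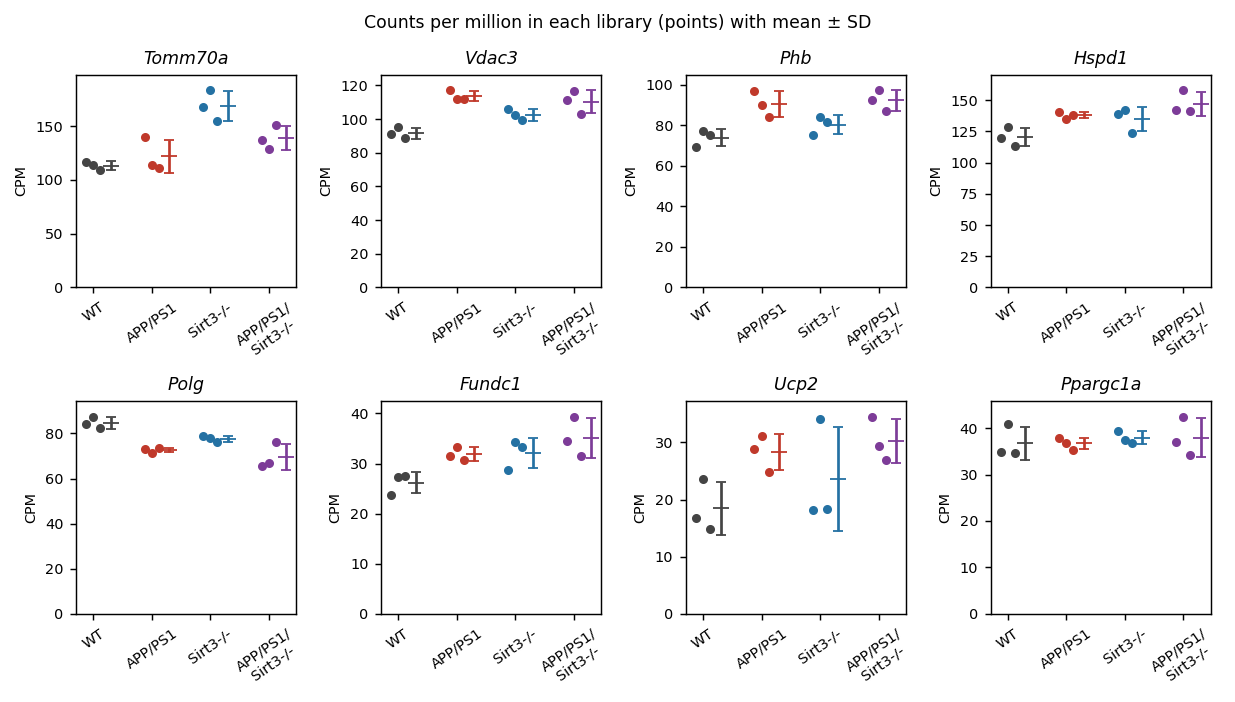
CPM of 8 members in each library (points, by group) with the mean and SD of 3 libraries beside them, each axis starting at 0. Tomm70a is highest in Sirt3-/-, Vdac3 and Phb are higher in both transgenic groups than in WT, Polg is lower outside WT and Ppargc1a overlaps in all 4 groups.

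Tomm70a was the member with the largest fold change among those called by edgeR on all 12 libraries. It encodes a receptor of the outer membrane that takes carrier proteins from cytosolic chaperones. Tomm70a (ENSMUSG00000022752, chromosome 16 from 57121714 to 57154530) was 117, 114 and 109 CPM in WT, 140, 114 and 111 in APP/PS1, 168, 183 and 155 in Sirt3-/- and 137, 129 and 151 in APP/PS1/Sirt3-/-. The Sirt3-/- libraries lay above all 9 others. Sirt3-/- against WT gave 0.58 on the log2 scale (standard error 0.09, edgeR adjusted p = 0.0255), a rise of 49.0%, in 3 of 3 libraries. Averaged over both backgrounds, Sirt3 deletion gave 0.38 (standard error 0.07, adjusted p = 0.0414).

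The 3 libraries labelled APP/PS1/Sirt3-/- did not order by their Sirt3 reads. Replicate 2, the only one with Sirt3 near 0, had the least Tomm70a (129 CPM), and replicates 1 and 4, with Sirt3 at 28.6 and 27.7 CPM, had 137 and 151. APP/PS1/Sirt3-/- against Sirt3-/- gave -0.28 on the log2 scale (standard error 0.09, adjusted p = 0.312), and the interaction gave -0.38 (standard error 0.13, adjusted p = 0.745). Neither passed.

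The 6 libraries with the most Tomm70a were the 6 with the highest summed striatal markers, across 3 groups. Within APP/PS1, the replicate with 1206 CPM of striatal markers had 140 CPM of Tomm70a, and those with 475 and 558 had 114 and 111. Within APP/PS1/Sirt3-/-, Tomm70a was 151, 137 and 129 CPM at 1747, 1140 and 310 CPM of striatal markers. All 11 striatal markers had a positive fold change in Sirt3-/- against WT, with a median of 2.5 on the log2 scale, and none passed the test.

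With the mean striatal markers as a covariate, Tomm70a differed by 0.32 between Sirt3-/- and WT (standard error 0.11, adjusted p = 0.661), and the average over both backgrounds was 0.23 (adjusted p = 0.729). With 3 region covariates the values were 0.38 (adjusted p = 0.923) and 0.28 (0.793). With thalamic or choroid plexus markers in their place, the difference against WT stayed at 0.64 and 0.58 (adjusted p = 0.0257 and 0.0259). All 3 Sirt3-/- libraries had more striatal markers than any WT library, so Sirt3 genotype and striatal content cannot be told apart between these groups. The call against WT was also lost without WT replicate 1, 2 or 4 (adjusted p = 0.0996, 0.158 and 0.111), without Sirt3-/- replicate 2 (0.0800), without APP/PS1/Sirt3-/- replicate 1 (0.0559), and without the 4 libraries numbered 4 (0.118). The log2 fold change in these fits was 0.51 to 0.60.

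The averaged Tomm70a call stayed only without APP/PS1 replicate 1 (adjusted p = 0.0115), APP/PS1/Sirt3-/- replicate 2 (0.0233) or Sirt3-/- replicate 1 (0.0480), and gave 0.0538 to 0.177 without any other library. Without APP/PS1/Sirt3-/- replicates 1 and 4, which hold Sirt3 reads, it was 0.32 on the log2 scale (adjusted p = 0.264), and 0.29 (0.484) when APP/PS1 replicate 4 was left out too. The call of Tomm70a against WT stayed in both fits (0.0180 and 0.0268).

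**Figure D4:**
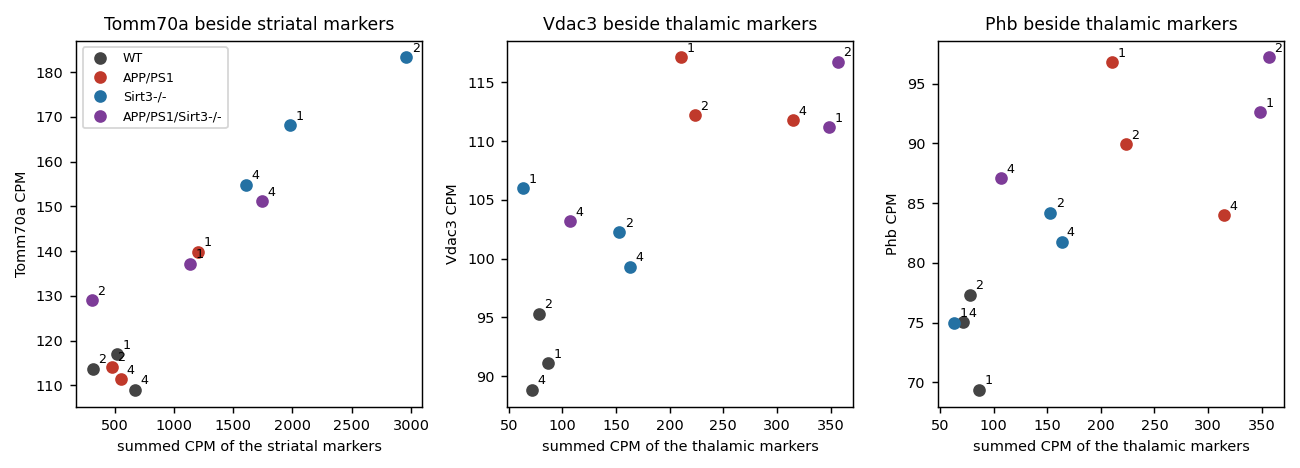
Tomm70a against the summed CPM of 11 striatal markers, and Vdac3 and Phb against that of 8 thalamic markers, 1 point per library with its replicate number. Tomm70a is 168 and 183 CPM in the 2 libraries with the most striatal markers, and Vdac3 is 88.8 to 95.3 in the WT libraries, which have few thalamic markers.

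No other translocase member passed. Tomm20, the receptor for presequences, was 282, 273 and 258 CPM in WT and 293, 310 and 309 in Sirt3-/- (log2 difference 0.17, standard error 0.06, adjusted p = 0.269). Tomm40, the channel of the outer membrane, Tomm22, its central receptor, and Timm23, the channel of the inner membrane, had log2 fold changes against WT from -0.07 to 0.10. Timm50, which receives proteins for Timm23, was 31.4, 32.8 and 34.3 CPM in WT, and APP/PS1/Sirt3-/- had 39.1, 37.7 and 34.5 (log2 difference 0.18, adjusted p = 0.244). Timm44, which anchors mortalin at the channel, was 70.3, 69.2 and 72.1 CPM in APP/PS1 and 64.3, 62.5 and 67.5 in APP/PS1/Sirt3-/-, without overlap (log2 difference -0.12, standard error 0.06, adjusted p = 0.974).

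Ucp2, a carrier of the inner membrane related to the uncoupling protein of brown fat, had the widest range of all members. It passed in no comparison of the edgeR fit to all 12 libraries without covariates. Ucp2 (ENSMUSG00000033685, chromosome 7 from 100493337 to 100502020) was 16.8, 23.7 and 14.9 CPM in WT, 28.8, 31.1 and 24.9 in APP/PS1, 18.2, 34.1 and 18.4 in Sirt3-/- and 34.5, 29.3 and 27.0 in APP/PS1/Sirt3-/-. In WT and in Sirt3-/- the high library was replicate 2, which in both groups was the one rich in choroid plexus markers (1774 and 1380 CPM, against 14.9 to 35.7 in the other 4). APP/PS1/Sirt3-/- against WT gave 0.72 on the log2 scale (standard error 0.25, edgeR adjusted p = 0.146, DESeq2 adjusted p = 0.0376), and 0.63 (adjusted p = 0.0211) with choroid plexus markers as a covariate. With the thalamic markers it was 0.32 (adjusted p = 0.892). Ppif, cyclophilin D of the permeability transition pore, was 25.5 to 29.6 CPM in WT and 25.5 to 30.1 elsewhere.

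**Figure D5:**
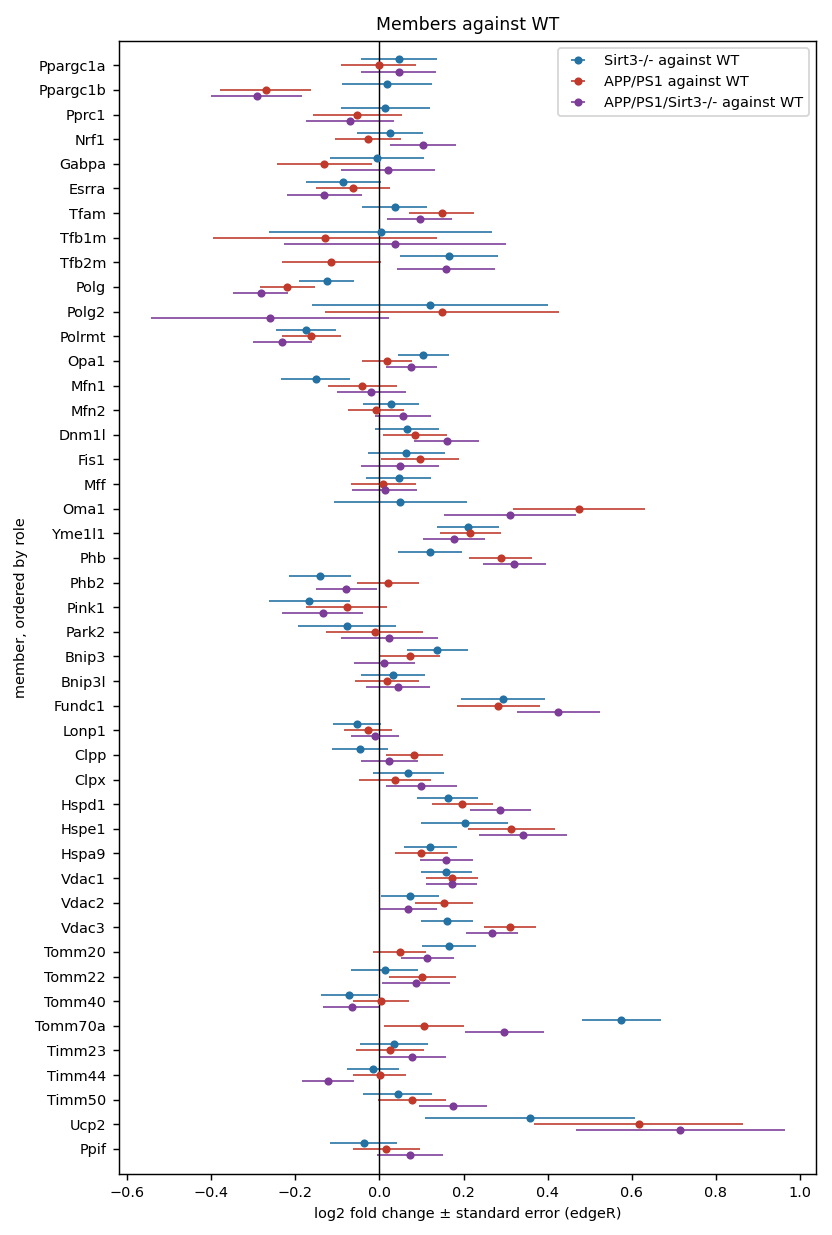
Log2 fold change against WT with its standard error for each member, by role, in Sirt3-/-, APP/PS1 and APP/PS1/Sirt3-/-. Tomm70a at 0.58 in Sirt3-/- is the only passing difference shown, and the porins, the chaperonin pair and Fundc1 lie to the right in all 3 comparisons while Polg and Polrmt lie to the left.

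The members did not vary as 1 block. Over the 12 libraries the median Pearson correlation of log2 CPM between 2 members was 0.07 for all 990 pairs, 0.01 for the 101 pairs of the same role and 0.07 for the 889 others. The pairs most alike were Hspe1 with Ucp2 (0.96, and 0.92 after removing group means), Polg with Polrmt (0.90 and 0.86), Fundc1 with Hspa9 (0.86 and 0.62), Hspd1 with Vdac3 (0.86 and 0.80) and Phb with Vdac3 (0.86 and 0.44). These pairs share libraries, depth and the mixture of brain regions, and the values are descriptions.

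Beyond the 45, other genes of the same processes were taken from 6 lists with 124 names, of which 119 were in the table and 116 passed the filter. With edgeR 1 of the 116 passed in APP/PS1/Sirt3-/- against WT, higher, and none passed in the other 7 comparisons. That is 0.862% of the 116, beside 1.13% of all genes. At an unadjusted p below 0.05 there were 15 in that comparison (12.9%, beside 20.1% of all genes), 13 in APP/PS1 against WT (11.2%, beside 17.0%), 11 in Sirt3-/- against WT (9.48%, beside 13.5%) and 18 in the APP/PS1 average (15.5%, beside 20.9%). DESeq2 called 1 of the 116 in APP/PS1/Sirt3-/- against WT (0.862%, beside 6.19% of its genes), 2 in APP/PS1 against WT (1.72%, beside 3.03%), 1 in Sirt3-/- against WT (0.862%, beside 2.46%) and 2 in the APP/PS1 average (1.72%, beside 5.96%), and none in the remaining 4 comparisons. The gene was Timm22 (ENSMUSG00000020843, chromosome 11 from 76406952 to 76416292), the channel through which carriers such as those handed over by Tomm70a enter the inner membrane.

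Timm22 was 21.9, 20.3 and 19.4 CPM in WT, 29.9, 26.3 and 28.5 in APP/PS1, 24.3, 30.5 and 26.7 in Sirt3-/- and 29.8, 28.3 and 27.3 in APP/PS1/Sirt3-/-. All 9 libraries of the other groups lay above WT. APP/PS1/Sirt3-/- against WT gave 0.47 on the log2 scale (standard error 0.09, edgeR adjusted p = 0.0375), with 0.46 in APP/PS1 (adjusted p = 0.0791) and 0.40 in Sirt3-/- (adjusted p = 0.0929). The call stayed without APP/PS1/Sirt3-/- replicate 4 (0.0210), Sirt3-/- replicate 1 (0.0197) or Sirt3-/- replicate 2 (0.00521), and Timm22 had an adjusted p of 0.0506 to 0.156 without any other library. With the thalamic markers as a covariate the difference was 0.29 (adjusted p = 0.694), and the adjusted p was 0.0772 with the striatal markers, 0.150 without the 4 libraries numbered 4 and 0.126 without APP/PS1/Sirt3-/- replicates 1 and 4. Gabarap, an autophagosome protein of the mitophagy list, was 94.6 to 95.8 CPM in WT and 108 to 113 in APP/PS1 (log2 difference 0.22, standard error 0.05, edgeR adjusted p = 0.0981). DESeq2 on all 12 libraries called Gabarap in APP/PS1 against WT and in the APP/PS1 average, each time beside Timm22.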

How the data were processed

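Cortical RNA of 12 libraries (4 groups of 3) was analysed from 1 deposited table of 35275 genes, with groups taken from the library titles. The authors enriched mRNA on oligo-dT, removed adaptors and low-quality reads, aligned with TopHat to GRCm38 (mm10) with up to 2 mismatches, and deposited whole-number counts of reads in each gene. The sources used here do not name the read counter or the annotation release. FPKM values deposited beside them equal the counts divided by gene length and by the total of each library. The log2 fold changes, p-values and normalized group means that the authors deposited from DESeq2, and their group means of FPKM, were not used.

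Counts were filtered with filterByExpr (16673 genes left), normalized by TMM and fitted in edgeR 4.0.16 (R 4.3.3) as 1 robust quasi-likelihood model of 4 group means, with 8 contrasts and p-values adjusted over all genes by Benjamini and Hochberg's approach (threshold 0.05). The fit has 8 residual degrees of freedom, and an exact permutation test of 3 libraries against 3 cannot give a two-sided p below 0.1. Library depth was 15251720 to 18644376 reads in genes, and the lowest members rest on 31 reads in a library. CPM are TMM-scaled counts, with a prior count of 2 on the log2 scale. The steps were tested on simulated counts. Alternatives were DESeq2 1.42.0 on all libraries or on the 2 groups compared, edgeR on the 2 groups compared, RLE normalization, no or a strict low-count filter (1 CPM), a block for the replicate number, leaving out each library, libraries in doubt left out, and sex or markers of brain regions as covariates. Leaving out the 4 libraries numbered 4 and using 1 marker list at a time were added after seeing the data. The members and lists were chosen with earlier results of these data known. Named in full were the members that passed, the 3 smallest p per contrast, Ppargc1a and Nrf1, and up to 5 members called by DESeq2 alone, with the libraries of other members, and Gabarap, added after their values were seen. Sequences came from RefSeq. Python 3.11.15, pandas 2.3.3 and matplotlib 3.10.9 made tables and figures.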

Additional observations from a re-analysis of the deposited data

How the results depend on the processing

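Of the refits of single named genes, 1589 kept their side of the threshold, 78 newly passed and 69 no longer passed, and none changed direction as a call. Against a count of 1 member called in Sirt3-/- against WT, 0 were called with 3 region covariates, with the striatal markers, with the replicate block and without the 4 libraries numbered 4, and 0 to 1 with a single library left out. For Sirt3 deletion averaged, also 1, the count was 0 under those settings, under the strict filter, with sex as a covariate and without the libraries in doubt (either choice), and 0 to 1 with a library left out. For APP/PS1 against WT the count of 0 became 3 with DESeq2 on all libraries, 4 with DESeq2 or edgeR on the 2 groups only, 1 without APP/PS1/Sirt3-/- libraries 1 and 4, and 0 to 3 with a library left out. For APP/PS1/Sirt3-/- against WT the 0 became 7 and 6 with DESeq2 on all libraries or the 2 groups, 3 with edgeR on the 2 groups, 2 with no filter, 1 with choroid plexus markers, with sex or without APP/PS1/Sirt3-/- libraries 1 and 4, and 0 to 7 with a library left out. For APP/PS1 averaged the 2 became 5 with DESeq2, 0 with choroid plexus, thalamic or 3 region covariates and without the 4 libraries numbered 4, and 0 to 7 with a library left out. The count of 0 in the other 3 comparisons stayed in every alternative. Of the single libraries left out, Sirt3-/- replicate 2 gave the highest counts in both transgenic groups against WT and in the APP/PS1 average. The cause of these moves was not tested.

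Over all genes, the 0 called in APP/PS1 against WT became 1089 with edgeR on the 2 groups alone, 498 with DESeq2 on all 12 libraries and 1264 with DESeq2 on the 2 groups. Deviations of libraries with the same replicate number had r from -0.11 to 0.23 (median 0.10, over 0.1 in 9 of 18 pairs), against a median of -0.05 for other numbers. In 21 of 36 cases the best of the 3 partners in another group had the same number. Since not every pair was over 0.1 and no label gives a shared source, the numbers were not taken as pairs. With the replicate block, Tomm70a had an adjusted p of 0.0594 in Sirt3-/- against WT and 0.0930 averaged, and Timm22 had 0.0545 in APP/PS1/Sirt3-/- against WT, while Vdac3 and Phb kept their calls (0.0378 and 0.0414). The counts of members without overlap, both directions together, moved by less than 1.5 times on RLE or FPKM scales, and the 10 highest members in WT were the same by median as by mean. The limits are 3 libraries a group, 3 libraries against their genotype label, 4 against their sex label, and unequal content of cortex and neighbouring brain regions.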
